A study of Mus musculus with 5 samples.

Results

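A set of 10 genes that nearly all white blood cells make was read in the esophagus of mice with an inducible IL-13 transgene. They are Ptprc, Itgb2, Laptm5, Cd53, Cd52, Rac2, Vav1, Arhgdib, Coro1a and Lcp1. Every probe set with one of them as its sole gene symbol was taken, which gave 21 probe sets for the 10 genes, of 45101 probe sets on the array and 18193 genes with a probe set of their own. All mice were FVB/N animals of 3 to 4 months that carried the CC10-rtta/teton-IL-13 transgenes, in which the CC10 promoter of airway club cells drives the doxycycline-dependent transactivator. The Dox group (n = 3 arrays) was fed with doxycycline and the NoDox group (n = 2 arrays) without it, so both groups share the transgenes and the diet cannot be told apart from the IL-13 it induces. Values are ratios, in which the signal of a probe set is set relative to its mean over both NoDox arrays. Separate animals for the arrays are not stated in the labels. The p-values therefore cover the array-to-array spread, which may be technical.

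Leukocytes share a set of proteins that other cells of the esophagus wall make little or none of. CD45, encoded by Ptprc, is a receptor phosphatase that keeps Src family kinases ready to signal. Beta-2 integrin chains hold leukocytes to vessel walls and to other cells. The small GTPase Rac2 and its regulators steer the actin skeleton and the oxidase of phagocytes. In whole tissue the RNA of such genes is often read as a gauge of leukocyte content, but a change in the number of cells and a change in RNA per cell cannot be told apart.

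Squamous markers stood high in these arrays, and so did some lung markers, as given below. Krt13, Krt4 and Krt5, keratins of esophageal epithelium, lay at percentiles 99.0, 98.8 and 97.8 of mean signal among all probe sets, with log2 differences between Dox and NoDox of 0.00, -0.03 and 0.02. These 3, named after their values were seen, were the least changed of 9 squamous markers, whose differences ran from -0.41 (Krt15) to 4.33 (Krt16). The mean signal, in steps recovered from the ratios, placed the main probe sets of the 10 leukocyte genes between percentiles 57.1 and 90.7. The median ratio over all probe sets was 0.955, 0.952 and 0.925 in Dox replicates 1, 2 and 3. The number of arrays limits the precision. With 3 arrays against 2, the smallest p of an exact permutation test is 0.1, and p-values come from limma fitted over all 45037 probe sets that are not array controls, with Benjamini-Hochberg adjustment.

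Start sites of 7 of the 10 genes were found in the RefSeq promoter table (build GRCm38.p6), with 12 windows of 250 bases before a start. Itgb2, Cd52 and Rac2 were not matched. Since most of the genes were higher in the same arrays, the windows were searched on both strands for the core that ETS transcription factors bind, GGAAGT. PU.1, an ETS factor, is a master regulator of myeloid and B cells. The core was found in 6 windows of 5 genes, and in 19.7% of all 32851 windows. The sites are shown read along the strand that carries the core, with up to 10 flanking bases inside the window and the core in capitals.
Ptprc, chr1:138175348-138175373, plus strand: cctctttgcaGGAAGTtaaaaaaaaa
Ptprc, chr1:138175402-138175427, minus strand: cttgaattaaGGAAGTaagaagccat
Laptm5, chr4:130913243-130913268, plus strand: agggcaaggcGGAAGTgaggcaggca
Vav1, chr17:57279081-57279099, plus strand: tcacagaagaGGAAGTggt
Arhgdib, chr6:136941721-136941746, plus strand: agaacaggaaGGAAGTtgagagagag
Lcp1, chr14:75130946-75130971, minus strand: gggggggtggGGAAGTgttggggggc

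The extended form GAGGAAGT, which contains that core, was found in the Vav1 window alone among the members and in 2.44% of all windows. The shorter GAGGAA, which overlaps it, was found in windows of 5 genes (Arhgdib, Cd53, Laptm5, Ptprc and Vav1) and in 23.3% of all windows. CCGGAAGT, another form of the core, was in 0 of the 12 windows and 2.88% of all, the RUNX core TGTGGT in 1 (Cd53) and 14.0%, and TATAAA in windows of 3 genes and 12.4%. A window without the ETS core is shown for Cd53, the tetraspanin that rose in Dox. The first window of Coro1a, shown beside it, holds none of the core either.
Cd53, chr3:106790150-106790399, minus strand: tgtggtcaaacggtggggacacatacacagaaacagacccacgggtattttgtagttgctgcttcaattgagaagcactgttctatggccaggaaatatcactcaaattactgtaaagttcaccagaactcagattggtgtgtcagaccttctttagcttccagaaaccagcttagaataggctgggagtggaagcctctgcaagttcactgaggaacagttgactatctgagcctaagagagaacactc
Coro1a, chr7:126704817-126705066, minus strand: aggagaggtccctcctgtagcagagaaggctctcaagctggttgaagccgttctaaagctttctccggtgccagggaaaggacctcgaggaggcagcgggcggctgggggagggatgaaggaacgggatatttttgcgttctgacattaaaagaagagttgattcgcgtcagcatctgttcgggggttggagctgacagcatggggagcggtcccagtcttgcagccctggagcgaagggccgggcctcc

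These matches describe letters only. Vav1, whose window holds the longest ETS form, had the smallest difference between Dox and NoDox of the 10 genes, as given below.

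The 10 genes were mostly higher in Dox, and 3 of them rose past the threshold of adjusted p under 0.05: the integrin chain Itgb2, the lysosomal protein gene Laptm5 and the tetraspanin gene Cd53. Each gene was read from its probe set of highest mean signal. By that reading 9 of 10 genes had a log2 difference above 0, their median was 1.41 (2.66-fold), and that of all probe sets was -0.08. In the same fit 0.973% of all genes rose, and 0.665% were lower. Over all 21 probe sets, 4 rose and 0 fell, where 0.573% of all probe sets rose and 0.482% fell. In 9 of the 10 genes all 3 Dox arrays lay above both NoDox arrays, which held for 13.7% of all genes, and in 0 all Dox arrays lay below, which held for 21.8%. With the p-values adjusted over genes in place of probe sets, 1 probe set per gene, Rac2 passed too (adjusted p = 0.0353, limma) and 0 members fell, where 1.35% of all genes rose and 1.17% fell.

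**Figure D1:**
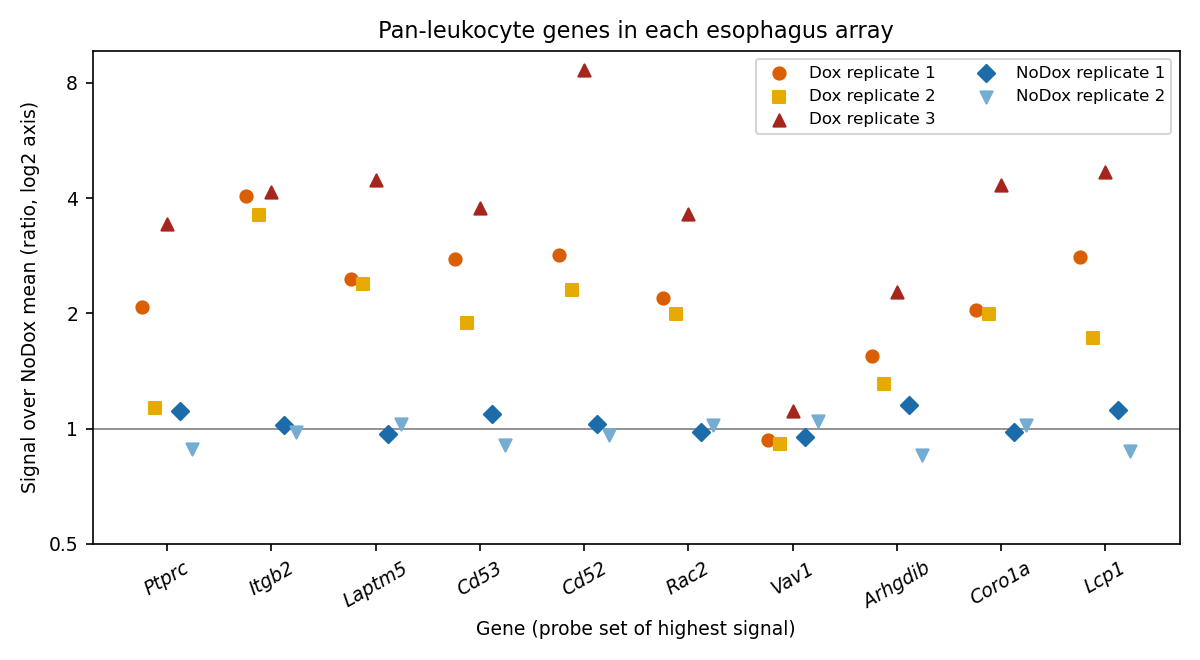
Ratio of signal to the NoDox mean (log2 axis) for the probe set of highest signal of each of the 10 genes, with a point for each of the 3 Dox and 2 NoDox arrays. The Dox points lie above both NoDox points in each gene except Vav1, and Dox replicate 3 is the highest in all 10.

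Of the surface and membrane proteins, Itgb2 encodes CD18, the beta chain of the leukocyte integrins LFA-1 and Mac-1. Its ratios were 4.06, 3.61 and 4.16 in Dox replicates 1, 2 and 3, against 1.02 and 0.981 in the NoDox arrays. The Dox arrays lay close together and far from NoDox. The log2 difference was 1.98 ± 0.14 (SE, n = 3 and 2), a 3.93-fold rise with a 95% interval of 3.16 to 4.90 (adjusted p = 3.36e-04, limma). This call held in all 5 fits with an array left out, with adjusted p from 6.25e-04 to 0.0270, and was lost when the fit had no signal trend (0.140) or a trend on the mean log2 ratio (0.537).

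Laptm5 encodes a lysosomal membrane protein that lowers antigen receptor levels in lymphocytes. It has 5 probe sets, which disagreed. The brightest had Dox ratios of 2.46, 2.38 and 4.46 and NoDox ratios of 0.966 and 1.03. It rose by 1.57 ± 0.25 on the log2 scale (2.97-fold, adjusted p = 0.0267, limma). The next brightest had 2.19, 2.35 and 3.84 against 1.05 and 0.948, and rose by 1.44 ± 0.24 (adjusted p = 0.0280, limma). Both sets thus gave near-equal rises, highest in Dox replicate 3. The other 3 overlapped between groups, with log2 differences of -0.37, 0.14 and 0.71. The call of the brightest was lost without NoDox replicate 1 (adjusted p = 0.333) and without NoDox replicate 2 (0.280).

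Cd53 encodes a tetraspanin that organises other membrane proteins on leukocytes. Its ratios were 2.78, 1.89 and 3.77 in Dox and 1.09 and 0.909 in NoDox. The groups were apart, with Dox replicate 2 the nearest to NoDox. It rose by 1.44 ± 0.26 (2.72-fold, adjusted p = 0.0396, limma). Of the 5 fits with an array left out, only that without Dox replicate 2 kept the call (0.00618). The adjusted p was 0.0904 without Dox replicate 1, 0.0961 without Dox replicate 3, 0.324 without NoDox replicate 1 and 0.394 without NoDox replicate 2. A second, dimmer probe set at percentile 30.5 of signal overlapped between groups (0.07 ± 0.68).

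Cd52 encodes a short lipid-anchored glycoprotein, abundant on lymphocytes. It had the highest single ratio among the main probe sets, 8.64 in Dox replicate 3, beside 2.84 and 2.30 in replicates 1 and 2 and 1.03 and 0.965 in NoDox. All Dox arrays were above NoDox, but they were far apart from each other. The log2 difference of 1.94 ± 0.46 was near that of Itgb2 in size and did not pass (adjusted p = 0.101, limma). Without Dox replicate 3 it was smaller, at 1.36, and passed (0.0283), and it also passed without Dox replicate 2 (0.0466).

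Ptprc, the gene of CD45 itself, was among the least separated. Its ratios were 2.08, 1.13 and 3.43 in Dox and 1.11 and 0.885 in NoDox, so Dox replicate 2 lay barely above NoDox replicate 1. The log2 difference was 1.01 ± 0.38 (2.01-fold, adjusted p = 0.271, limma). It was 1.43 without Dox replicate 2 and then passed (0.0313). A dim second probe set, at percentile 16.6 of signal, had 4.36, 4.77 and 11.3 in Dox and 1.61 and 0.394 in NoDox, a difference of 2.95 ± 0.94 (adjusted p = 0.206).

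Among Rac2 and the genes that act on Rac proteins, Rac2 itself stood apart from NoDox in every Dox array, Arhgdib less, and Vav1 not at all. Rac2, the leukocyte form of Rac, had ratios of 2.19, 1.99 and 3.64 in Dox and 0.983 and 1.02 in NoDox. Its log2 difference was 1.33 ± 0.26 (2.51-fold, adjusted p = 0.0545, limma), just outside the threshold. It passed in 5 of 13 alternatives, among them quantile normalization (0.0453), dim probe sets left out (0.0464) and Dox replicate 2 left out (0.0326). It did not pass without Dox replicate 1 (0.0813), without Dox replicate 3 (0.0843) or with no signal trend (0.382). Its second probe set, at percentile 32.2, gave 0.27 ± 0.53.

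Arhgdib encodes a dissociation inhibitor that holds Rac proteins in the cytosol. It had ratios of 1.55, 1.31 and 2.27 in Dox and 1.15 and 0.854 in NoDox. The groups did not overlap, and the difference of 0.75 ± 0.23 (1.68-fold, adjusted p = 0.196, limma) did not pass in any of the 13 alternatives (0.0917 to 0.718). It was the brightest of the 10, at percentile 90.7 of signal.

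Vav1 encodes the exchange factor that loads Rac with GTP after antigen receptor signals. Its brighter probe set had ratios of 0.932, 0.911 and 1.11 in Dox and 0.950 and 1.05 in NoDox. These overlapped, with a difference of -0.03 ± 0.24 and a 95% interval from -0.57 to 0.52, and the sign turned with median centring (0.05). The other, at percentile 36.0 of signal, had 1.02, 1.12 and 1.52 against 0.816 and 1.18 (0.29 ± 0.49, 95% interval -0.82 to 1.41). A rise of the size seen for Itgb2 lies outside both intervals, while one of the size of Arhgdib lies outside the first alone.

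Both actin-binding genes were above NoDox in every Dox array without passing the threshold. Coro1a encodes coronin 1A, which controls actin turnover and T cell survival. Its ratios were 2.04, 1.99 and 4.34 in Dox and 0.979 and 1.02 in NoDox, with a log2 difference of 1.38 ± 0.31 (2.60-fold, adjusted p = 0.0837, limma). A second probe set gave 1.28 ± 0.43, and another, at percentile 14.2 of signal, gave 3.26 ± 0.85 with ratios of 8.48, 6.65 and 13.7. All 3 were highest in Dox replicate 3.

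Lcp1 encodes L-plastin, which bundles actin in leukocytes. It had 2.81, 1.73 and 4.67 in Dox and 1.12 and 0.877 in NoDox. The groups were separate and the Dox arrays widely spaced, with a log2 difference of 1.51 ± 0.34 (2.85-fold, adjusted p = 0.0883, limma). Without Dox replicate 2 it passed (0.0152). A second probe set had 1.98, 1.44 and 3.86 against 1.19 and 0.811, with a difference of 1.18 ± 0.37.

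**Figure D2:**
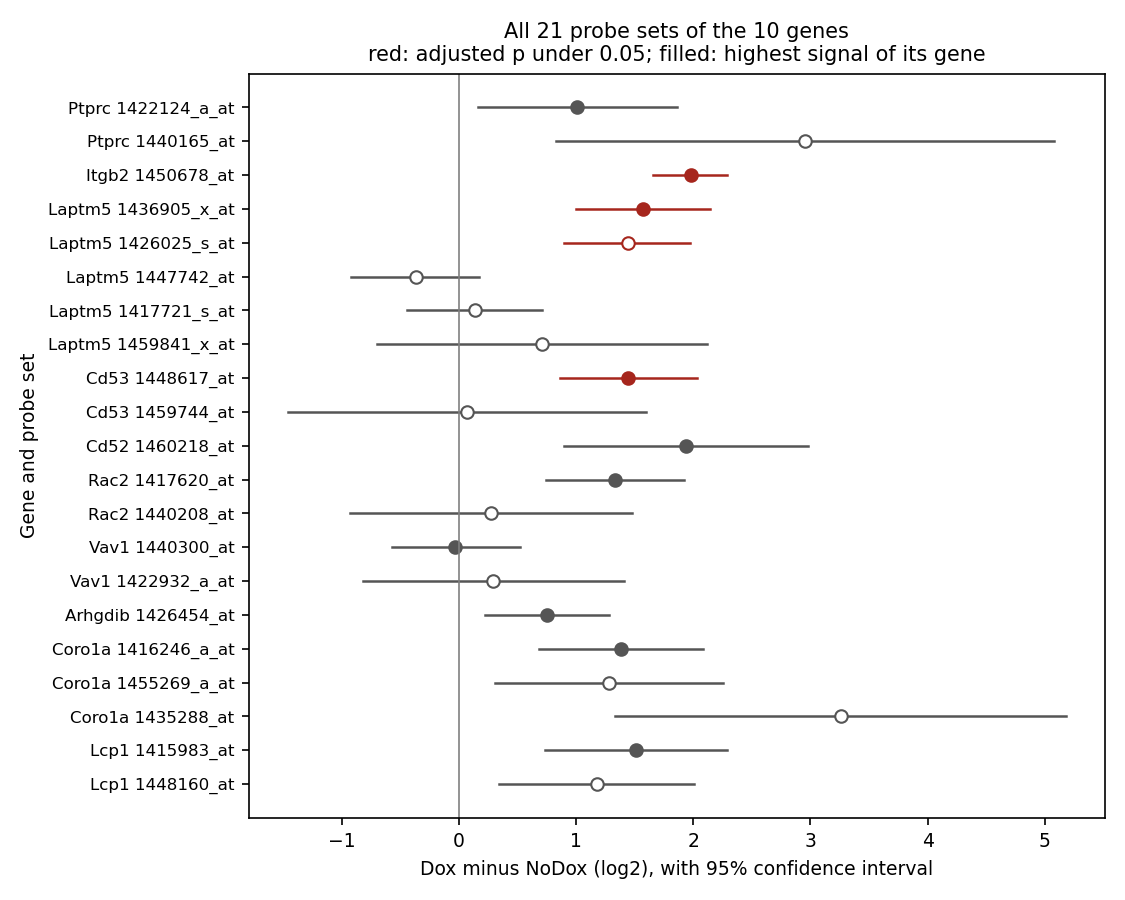
Log2 difference between Dox and NoDox, with its 95% confidence interval, for all 21 probe sets of the 10 genes. Red marks the 4 probe sets with adjusted p under 0.05, and filled points mark the probe set of highest signal of each gene. The intervals of the dim probe sets of Ptprc and Coro1a are the widest of those above 0.

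The Dox arrays differed from each other in a like way across the members. Each of the 10 genes was lowest in Dox replicate 2 and highest in Dox replicate 3. Over all genes Dox replicate 3 was the highest in 29.7%, and the same order of the 3 arrays held in 17.3%, or in 25.4% of the 2497 genes with all Dox arrays above NoDox. Among the 174 other genes that rose past the threshold, that order held in 36.8%. The geometric mean ratio of the 10 genes was 2.22, 1.79 and 3.62 in Dox replicates 1, 2 and 3, and 1.04 and 0.957 in the NoDox arrays. Dox replicate 3 thus held 2.02 times the value of Dox replicate 2. The NoDox arrays differed by a factor of 1.09. The 10 genes come from the same arrays, so this order is one observation and not 10. Of the 21 probe sets 18 were highest in Dox replicate 3, and the 3 others were the Laptm5 sets that overlapped between groups.

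The size of that spread varied by gene. The SD of the log2 ratio over the 3 Dox arrays was 1.03 for Cd52, 0.81 for Ptprc, 0.72 for Lcp1 and 0.64 for Coro1a. It was 0.51 for Laptm5, 0.50 for Cd53, 0.47 for Rac2 and 0.40 for Arhgdib. Vav1 (0.15) and Itgb2 (0.11) varied least. When set against probe sets in the same decile of signal, 8 genes had an SD above the median, and 7 above the 90th percentile. Itgb2 and Vav1 lay below the median of theirs. The SD of Itgb2 enters its small standard error, and Cd52, with a difference of near-equal size, had a standard error of 0.46.

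**Figure D3:**
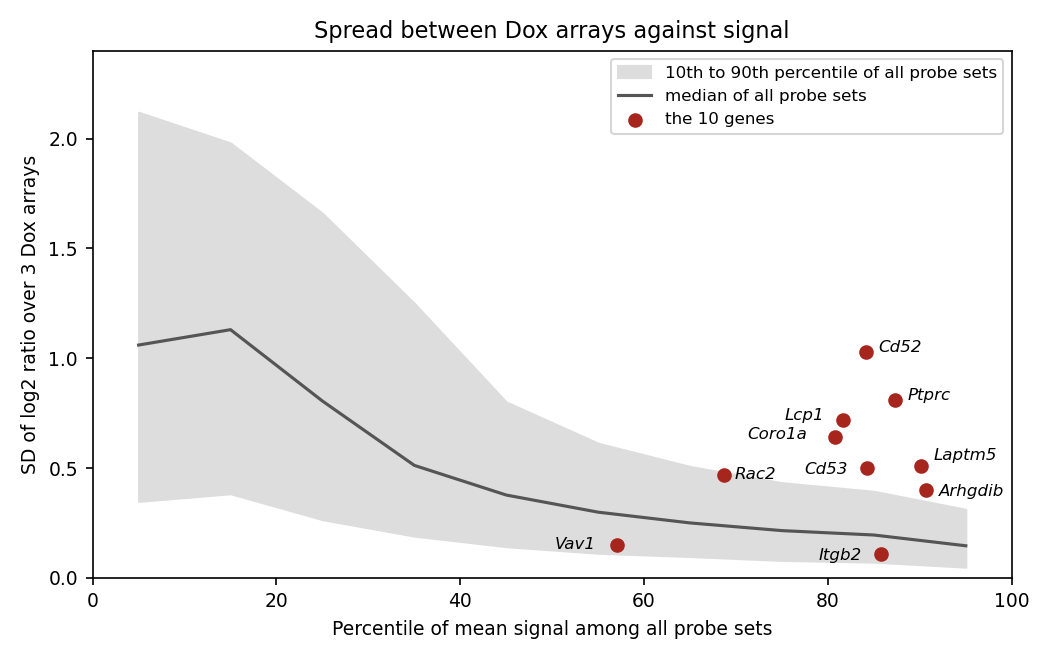
SD of the log2 ratio over the 3 Dox arrays against the percentile of mean signal. The band spans the 10th to 90th percentile of all probe sets in each decile of signal, the line is the median, and points are the 10 genes. Itgb2 and Vav1 lie below the line, and 7 genes lie above the band.

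Subtracting the members' median in each array showed which genes kept its course. Rac2 stayed within 0.12 of it in all 5 arrays, Coro1a within 0.19, Cd53 within 0.26, Lcp1 within 0.27 and Laptm5 within 0.30 on the log2 scale. Itgb2 was above it by 0.81 and 0.90 in Dox replicates 1 and 2 and by 0.07 in replicate 3. Cd52 was above by 0.29, 0.25 and 1.13. Ptprc differed from it by -0.78 in Dox replicate 2. Vav1 departed most, by -1.31, -1.09 and -1.84 in the Dox arrays, and Arhgdib by -0.58, -0.56 and -0.80. The root mean square distance of Rac2 from the mean of the 10 genes was 0.086. Outside the members, over 5 arrays and 18193 genes, the nearest to that mean were Myo1g (0.086), a myosin of leukocytes, Tmem243 (0.088), Gm17508 (0.125), the lysosomal protease gene Ctss (0.125) and Tmem229b (0.135). With 5 arrays many genes are near, and 53 others lay within 0.25.

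A further 23 genes made by most leukocytes gave a similar picture. Of them 3 rose and 0 fell, 20 had all Dox arrays above NoDox, and their median log2 difference was 1.14. Srgn, the core protein of secretory granules, rose by 1.89 ± 0.22 (adjusted p = 0.00566, limma), with ratios of 4.47, 2.68 and 4.23. Selplg, the ligand of P-selectin, rose by 1.43 ± 0.20 with 2.27, 2.75 and 3.13. Dock2, an exchange factor for Rac, rose by 1.66 ± 0.29 with 2.99, 2.65 and 3.68. Dox replicate 3 was the highest array in 18 of the 23, and the order of the members was kept by 12. Their median ratio was 1.76, 1.61 and 2.80 in the Dox arrays.

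Relatives of the members that most cell types make did not share these values. Of 17 measured, 0 passed the threshold in limma, and their median log2 difference was -0.02. An unadjusted p under 0.05 was found for 2 of the 17, and for 16.9% of all genes. Rac1, the widely made form of Rac, was at 0.07 ± 0.13 where Rac2 was at 1.33, and Rac3 at -0.31 ± 0.42. Vav2 (0.23) and Vav3 (0.18) were near Vav1. Coro1b (0.42) and Coro1c (-0.02) stood beside Coro1a at 1.38. Pls3 (-0.38) and Pls1 (0.43), plastins of other tissues, stood beside Lcp1 at 1.51. Itgb1, the beta-1 integrin chain, was at -0.66 ± 0.21 (adjusted p = 0.212, limma), with 0.831, 0.632 and 0.480 in Dox. Differences between a member and its relative were not tested.

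Partners of Itgb2 were uneven. Of 11 genes of leukocyte integrins and their ligands 2 rose, and 8 had all Dox arrays above NoDox. Itgax, which encodes the alpha chain CD11c, rose by 2.03 ± 0.35 with ratios of 3.78, 2.67 and 6.69 (adjusted p = 0.0351, limma). Icam2, a ligand on endothelium and platelets, rose by 1.32 ± 0.20 with 2.64, 2.46 and 2.38. The other alpha chains, named after their values were seen, were Itgam (CD11b), at 2.33, 3.08 and 1.06 (0.99 ± 0.43), and Itgal (CD11a), at 1.45, 1.45 and 2.73 (0.86 ± 0.41). In Dox replicate 3 Itgam was thus low and Itgax and Itgal were high, while Itgb2 was level across the arrays.

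Genes of the Rac-driven phagocyte oxidase and of Rac signalling followed in part. Of 10 measured 4 rose and 0 fell. Cyba, a membrane subunit of the oxidase, rose by 1.13 ± 0.15 (adjusted p = 0.0121, limma). The cytosolic subunit genes Ncf1 and Ncf4 rose by 1.25 ± 0.21 and 1.23 ± 0.21, and Dock2 is counted here too. Of 9 kinases and adaptors that act with CD45, 0 passed in limma (2 had an unadjusted p under 0.05, as had 16.9% of all genes). The adaptor gene Lcp2 was at 1.33 ± 0.27 (adjusted p = 0.0646) and the Src family kinase gene Fgr at 0.78 ± 0.27. Only 5 of these 9 had a log2 difference above 0.

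Markers of single leukocyte types differed in how they followed the spread between Dox arrays. The part of each type in the members' values was not tested. Of 17 macrophage genes 6 rose. The 4 of smallest p were Cd68 (1.54 ± 0.16), Tyrobp (1.42 ± 0.19), Fcgr3 (1.08 ± 0.18) and Csf1r (0.80 ± 0.14), and the other two were Adgre1 (0.97 ± 0.18) and Marco (4.37 ± 0.82), which had the largest rise of the list. Their median ratio was 1.96, 1.65 and 1.65 in Dox replicates 1, 2 and 3, equal in replicates 2 and 3, and 4 of 17 had the order of the members. Their summed ratio was 40.6, 39.7 and 50.3 in Dox and 17.9 and 16.1 in NoDox. Marco, a dim gene with ratios of 8.63, 13.6 and 22.4, was 44.6% of the sum in Dox replicate 3, and without it the sums were 31.9, 26.1 and 27.9 in Dox and 16.2 and 15.8 in NoDox. Of 11 dendritic cell genes 4 rose, Cd207, Cd74, H2-Aa and H2-Ab1. All Dox arrays lay above NoDox in 8 of the 11, while Flt3 (0.43), Zbtb46 (0.09) and Xcr1 (-0.18) overlapped between groups. The list's median ratio was 2.08, 2.06 and 2.83, with sums of 41.4, 34.9 and 92.1 against 9.52 and 12.5. The dim chemokine receptor gene Ccr7 (19.3, 13.9 and 66.1, adjusted p = 0.0532 in limma) was 71.7% of the sum in Dox replicate 3, and without it the sums were 22.0, 21.0 and 26.0 against 8.70 and 11.3. Marco, Ccr7, Flt3, Zbtb46 and Xcr1 were named after their values were seen. Of 11 neutrophil genes S100a8 and S100a9, which epithelium also makes, rose, and the median ratio was 2.35, 1.36 and 1.54. Only 7 of these 11 had a log2 difference above 0, and the differences ran from -2.44 to 3.42.

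B and plasma cell genes were mostly highest in Dox replicate 3. Over 14 measured genes the median log2 ratio was 3.46 in Dox replicate 3, against 0.81 in Dox replicate 1. Their summed ratio was 31.0, 34.9 and 149 in Dox against 14.2 and 13.8. Dox replicate 3 was the highest array in 12 of the 14, and 1, Derl3, rose (3.17 ± 0.30). Only 3 of the 14 had the members' order of the Dox arrays. A log2 difference above 0 was found for 12 of the 14, and the differences ran from -0.30 to 3.17. The B cell antigen gene Ms4a1, chosen like Cd79b after its values were seen, had ratios of 1.19, 1.36 and 14.5, and the B cell receptor gene Cd79b 2.70, 2.15 and 22.4. Of 14 T and NK cell genes 0 passed in limma (3 had an unadjusted p under 0.05, as had 16.9% of all genes). Il7r was at 1.60 ± 0.36 and Nkg7 at 1.34 ± 0.37. In this list 10 of 14 had a log2 difference above 0, and the differences ran from -0.89 to 2.01 with a median of 0.84. Their median ratio was 1.58, 1.28 and 1.96, their sum 22.8, 19.9 and 32.9 against 16.6 and 11.4 in NoDox, and 8 of 14 had the members' order. No marker of these lists was listed at 0, but the lowest deposited ratio was 0.01, so this does not show that they were detected.

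Lung markers moved in the same arrays. Of 10 measured 5 rose, among them the surfactant genes Sftpc (2.18 ± 0.24), Sftpa1 (2.99 ± 0.37) and Sftpd and the protease gene Napsa. In mean signal Sftpc lay above the keratins Krt13, Krt4 and Krt5, and Sftpa1, Sftpd and Napsa lay at percentiles 91.6, 86.9 and 67.9. Scgb1a1, named after its values were seen, lay at percentile 97.5. Against a median percentile of 97.8 for the squamous markers, that of the lung list was 85.0, and its lowest was 30.9. The list's median ratio was 2.84, 2.53 and 4.26 in Dox and 1.04 and 0.959 in NoDox, its sum 35.5, 27.8 and 64.4 against 10.3 and 9.66, and 7 of 10 genes had the order seen in the members. Red cell markers did not, with median ratios of 1.29, 0.939 and 0.763 over 4 genes. Of these 0 passed the threshold in limma, and 0 had an unadjusted p under 0.05, against 16.9% of all genes. The part of lung tissue in the leukocyte values was not tested.

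**Figure D4:**
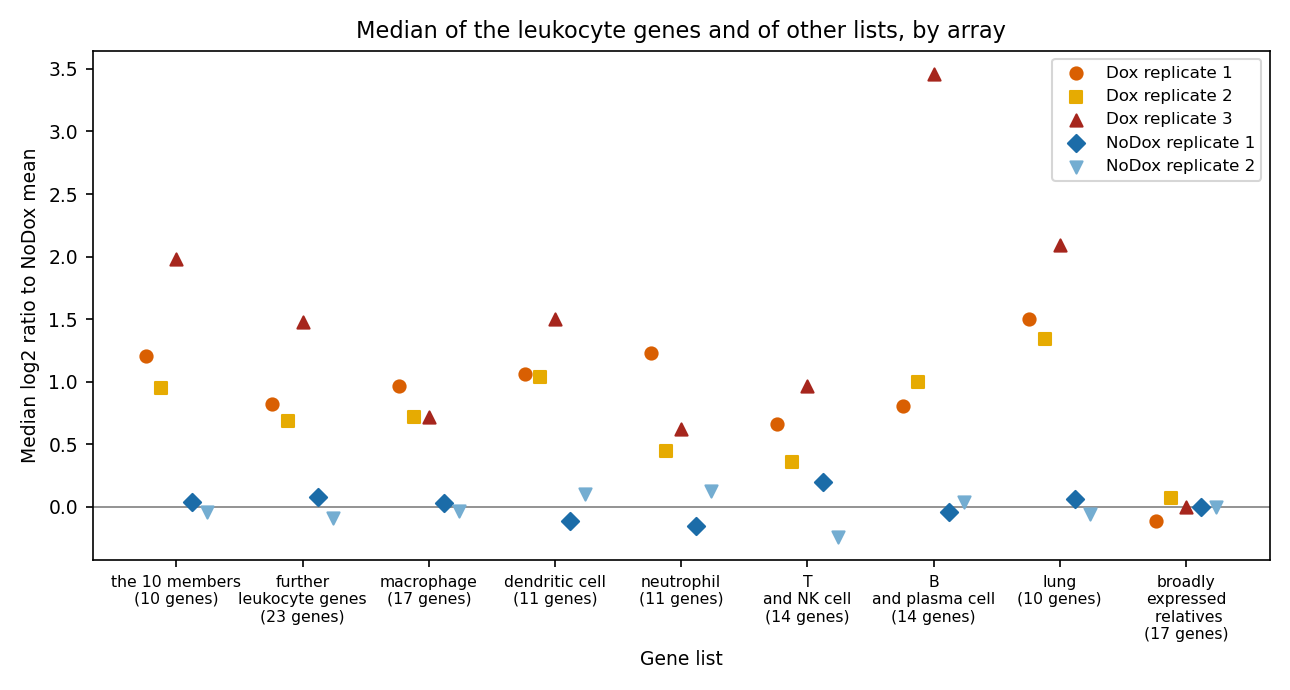
Median log2 ratio to the NoDox mean for the 10 genes and for 8 other lists, with a point for each array. Dox replicate 3 is highest for the 10 genes, the further leukocyte genes, the dendritic cell, T and NK cell, B and plasma cell and lung lists, and not for the macrophage, neutrophil and relatives lists.

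Single arrays decided most of the calls. Without Dox replicate 2, in which all 10 genes were the lowest of the Dox arrays, 7 of the 10 passed in limma, and 1.33% of all genes rose. Without Dox replicate 3 there were 3, Itgb2, Laptm5 and Cd52, and 0.511% of all genes. Without Dox replicate 1 there were 2, and 0.522% of all genes. Without NoDox replicate 1 or 2 Itgb2 alone passed, and 0.170% or 0.198% of all genes rose, so the counts over all genes moved with the array left out as well. A fit without a NoDox array takes the remaining one to vary like the Dox arrays. The median log2 difference of the 10 genes was 1.11 without Dox replicate 3 and between 1.34 and 1.64 without any other single array.

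**Figure D5:**
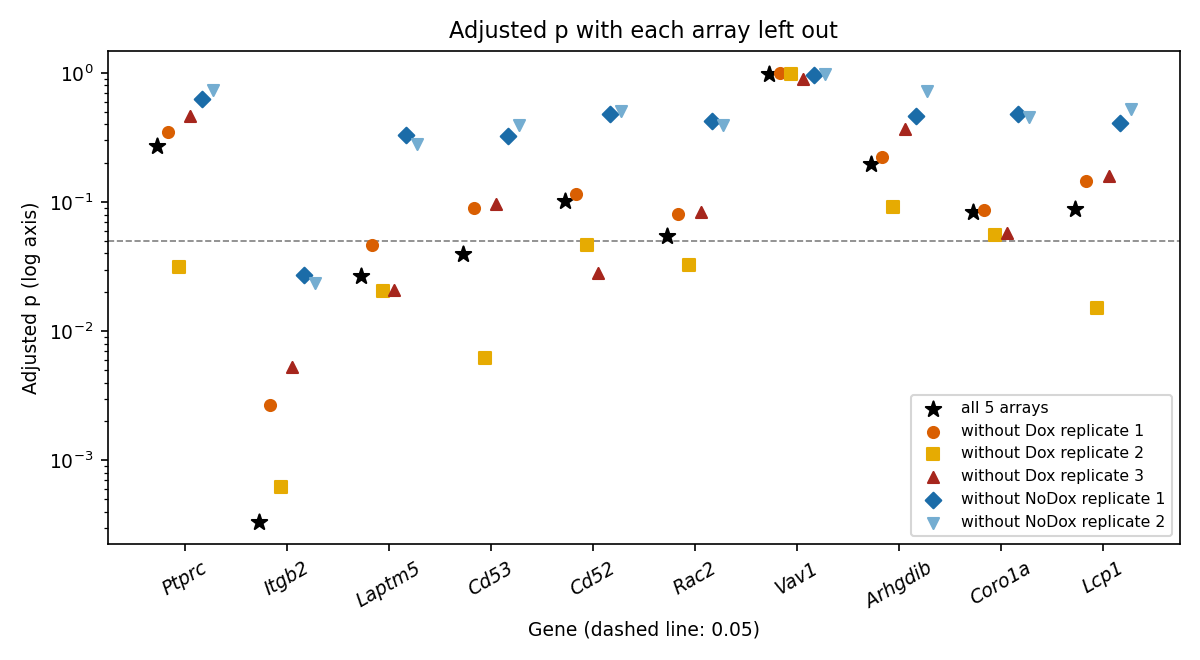
Adjusted p (log axis) of each of the 10 genes in limma with all 5 arrays and with each array left out, with a dashed line at 0.05. Itgb2 stays under the line in all 6 fits, and Vav1 and Arhgdib stay above it in all 6.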

How the data were processed

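RNA of the esophagus was measured in 5 Affymetrix Mouse Genome 430 2.0 arrays. Per the labels' protocols, signals came from MAS 5.0, and GeneSpring 7.3.1 then scaled them to unstimulated controls. What the authors deposited is a linear ratio per probe set and array. In 45099 of 45101 probe sets the NoDox ratios sum to 2 within 0.0001. A genome build is not given in the sources used here.

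The signal behind the ratios was recovered as whole steps, with a scale factor per array, within a relative tolerance of 3e-07. It was found for 90.2% of 45098 probe sets and for 0.750% of 4000 with ratios shuffled. Others got a lower bound. On simulated ratios 96.04% were right, and 99.69% were right or divided by a whole number. Mean log2 signal served as the limma trend and chose each gene's probe set.

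Log2 ratios, with no offset or filter, went into limma 3.58.1 (R 4.3.3), with lmFit and a trended eBayes. Tests were two-sided at 0.05 after Benjamini-Hochberg adjustment across 45037 probe sets. Residual degrees of freedom were 3 and those of the prior 6.07. Of the probe sets fitted, 34945 have 1 gene symbol, 932 several and 9160 none, and 64 controls were left out. In simulations of Dox against NoDox with 45037 probe sets, 0 were called with no change, 0 of 200 changed 2-fold (0 false calls), and 82 of 200 changed 4-fold (7 false calls).

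The members and the gene lists were chosen with earlier results of these data known. Named genes are the members, up to 4 called genes of each list or else the 2 of smallest p, listed relatives of Rac2, Vav1, Arhgdib (none measured), Coro1a, Lcp1 and Itgb2, and the 5 genes nearest the members' mean. Others are marked as named after their values were seen. List sums without their largest gene were added after seeing the data. Alternatives covered scaling, trend, offset, filter, probe set, replicate block and single arrays. Python 3.11.15, numpy 2.4.6, pandas 2.3.3 and matplotlib 3.10.9 were used.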

Additional observations from a re-analysis of the deposited data

How the results depend on the processing

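The median log2 difference of the 10 genes, 1.41 as reported, ranged from 1.07 to 1.64 over the alternatives, the lowest with the median over each gene's probe sets, and moved by less than the spread between Dox arrays. The counts of calls depended on the variance model. With no trend limma called 6 probe sets higher and 0 lower (4514 at unadjusted p under 0.05) and 0 of the members, and with a trend on the mean log2 ratio 0 and 0 (4136 at unadjusted p under 0.05) and 0 of the members. Quantile normalization gave 5 member genes, with 300 probe sets higher and 181 lower. Median centring gave 3 member genes and left 141 probe sets lower with 299 higher. The main fit had 217 lower and 258 higher. With 1 array left out the probe sets higher ran from 40 to 354 and lower from 7 to 475, the member probe sets called from 1 to 8 and the member genes from 1 to 7. The replicate number as a block gave 410 higher and 436 lower, with 8 member probe sets and 7 member genes called. No NoDox array has number 3, so this fit takes the difference from Dox replicates 1 and 2 alone. Its median difference of the members, 1.11, equals that without Dox replicate 3, and it is no separate reading of all 5 arrays. Dox and NoDox arrays of the same number correlated at 0.01 and 0.02 in their deviations from group means. With 2 NoDox arrays those deviations mirror each other, so the values cannot settle whether the numbers pair the arrays. The difference of Vav1 turned sign with median centring (0.05), with the median over its probe sets (0.13), and without Dox replicate 1 (0.01), Dox replicate 2 (0.02) or NoDox replicate 2 (0.04), in a range of -0.12 to 0.04 over the 5 fits that leave out an array. Member genes called lower were 0 in every fit. The causes of these changes were not tested. The ratios carry no detection call, so signal over background is known only as the recovered signal.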

Other observations

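Other leukocyte types had few calls. Of 7 eosinophil genes 0 passed in limma (2 had an unadjusted p under 0.05, as had 16.9% of all genes). Adgre4 was at 1.81 ± 0.51 and the lectin gene Siglecf at 2.85 ± 0.88 on the log2 scale. Of the 7, 5 had a log2 difference above 0, and the differences ran from -1.09 to 2.85 with a median of 0.09. The main probe sets of this list were dim, with a median at percentile 12.3 of signal. Of 11 mast cell and basophil genes Hdc, which makes histamine, rose by 3.27 ± 0.47 (adjusted p = 0.0160, limma), with ratios of 8.93, 5.69 and 17.0 in Dox replicates 1, 2 and 3. The other 10 did not pass. Of the 11, 8 had a log2 difference above 0, and the differences ran from -0.76 to 3.27 with a median of 0.26.

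Among the squamous markers Krt6a and Krt16 rose, 2 of 9 measured, and Dox replicate 3 was the highest array in 0 of the 9. Of 10 skeletal muscle genes 4 fell, and their median ratio was 0.643, 0.292 and 0.534 in the Dox arrays, lowest in Dox replicate 2. The tetraspanin gene Cd37 of the further leukocyte list, chosen after its values were seen, had Dox ratios of 1.11, 1.59 and 6.81.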
